A study of Homo sapiens with 12 samples.

Results

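A set of 10 genes that restrain cytokine signalling through the JAK kinases and STAT transcription factors was followed in this RNA sequencing series: SOCS1, SOCS2, SOCS3, SOCS4, SOCS5, SOCS6, CISH, PIAS1, PTPN2 and PTPN6. They were chosen by name, with earlier results of these data known. Each matched 1 row of the deposited table, so the set holds 10 of 58051 genes. All 10 passed the filter on low counts and were among the 17119 genes tested. The libraries came from THP-1, a human monocytic leukaemia line that phorbol 12-myristate 13-acetate (PMA) turns into macrophage-like cells, and the series was made to study how syndecan-3, a heparan sulphate proteoglycan of the cell surface, bears on pro-inflammatory macrophage functions. Every culture received PMA at 20 ng/ml for 24 h and then fresh medium. The 4 groups of 3 libraries were WT cells with PMA alone (WT_PMA), WT cells with PMA and recombinant human interferon gamma (IFN-γ; WT_IFNG), and SDC3-KO cells, edited with CRISPR/Cas9, under the same pair of treatments (KO_PMA and KO_IFNG). The labels give neither the dose nor the duration of IFN-γ, nor how many edited lines there were, so the effect of the SDC3 edit and other differences between the lines cannot be told apart. They also do not say whether the 3 libraries of each group are separate cultures, so every p-value speaks for the scatter of these samples alone, part or all of which may be technical.

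Cytokine receptors without enzyme activity of their own carry JAK kinases. Ligand binding lets the JAKs phosphorylate the receptor and the STATs, which move to the nucleus and switch on target genes. Some of those targets are the brakes: SOCS1 and SOCS3 bind and inhibit JAKs, CISH and SOCS2 bind phosphorylated receptors, and all SOCS proteins carry a SOCS box that recruits a ubiquitin ligase. PIAS1 acts on activated STATs in the nucleus and is a SUMO ligase, and the phosphatases PTPN2 (TC-PTP) and PTPN6 (SHP-1) remove the activating phosphates. In macrophages SOCS1 is the classical brake on IFN-γ, and SOCS3 that on the IL-6 family.

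The sequences before the gene starts are shown for the 2 members whose windows held one of the motifs searched. RefSeq windows of 250 bases before the start (GRCh38.p14) were found for 8 of the 10 members; SOCS2 and SOCS5 had none. The motifs, searched on both strands, were the STAT site as TTC and GAA with either 3 or 4 bases between them, and the interferon response pair as GAAA and GAAA with 2 bases between them. Capitals mark the matches.
SOCS1, chr16:11256205-11256454, minus strand: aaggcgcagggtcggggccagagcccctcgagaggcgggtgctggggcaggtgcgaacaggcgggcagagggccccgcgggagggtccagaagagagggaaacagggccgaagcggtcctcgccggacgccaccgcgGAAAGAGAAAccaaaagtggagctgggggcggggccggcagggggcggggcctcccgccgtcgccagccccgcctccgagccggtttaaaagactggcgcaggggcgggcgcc
CISH, chr3:50611832-50611907, minus strand: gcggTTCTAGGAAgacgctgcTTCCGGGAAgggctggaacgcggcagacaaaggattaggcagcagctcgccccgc
The SOCS1 window held 1 interferon response pair, 113 to 104 bases before the start, and no STAT site. The CISH window held 4 STAT sites with a 3-base spacer, TTCCTGGAA, TTCTTGGAA, TTCTAGGAA and TTCCGGGAA, whose first bases lay 241, 230, 129 and 112 bases before the start. Exons in the deposited annotation covered 174 of the 250 bases, so only the longest stretch outside them is shown, with the third and the fourth site. Of all 35116 windows of that length, 6.57% held the STAT site of spacing 3 at least once, 0.356% at least 2 times, and 5 windows at least 4 times; 5.38% held the STAT site of spacing 4 and 3.02% the interferon response pair. A match is a match of letters and not a site of binding. SOCS3, PIAS1 and PTPN6 were listed with 2 starts each, and the PTPN2 window lay inside the gene bounds of the counted annotation, not at its outer start. The second windows of PIAS1 and PTPN6 also lay inside the gene bounds. For SOCS3, whose counted bounds end at 78360077, 1 window lay upstream (78360926 to 78361175) and the other inside (78359668 to 78359917). The bases directly before the SOCS3 start of that annotation were thus not searched.

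Sequencing depth was even, at 23616738 to 29426415 assigned counts a library. Values are counts-per-million (CPM) on library sizes scaled by TMM. SDC3 was lower in the knockout but not absent: its CPM was 237 to 244 against 572 to 590 with IFN-γ, and 43.9 to 49.9 against 196 to 252 without it. The edited position is not given and the counts cover all exons, so this checks the direction of the labels only. Of the 10 monocyte and macrophage markers, 9 were well above the detection floor, and CD68 stood near it, at a mean of 0.540 and 0.278 CPM in the WT without and with IFN-γ and 0.131 CPM in both knockout groups. Whether CD68 shares exonic bases with other genes, where reads could not be assigned, was not computed. Summed, the 10 reached 3967 to 4135 in the untreated knockout and 4296 to 4439 in the untreated WT, and 4656 to 4887 and 5191 to 5367 with IFN-γ. Single markers differed more, and in both directions, with lower means in the knockout for most of the 10 in each treatment. Without IFN-γ, MRC1 had a mean of 7.98 CPM in the knockout and 31.8 CPM in the WT, and CD163 8.74 and 25.3 CPM. Among those higher in the knockout there were CD14 (389.9 and 322.1 CPM) and CSF1R (1439 and 1251 CPM). With IFN-γ, LYZ had 229.9 and 533 CPM, while CSF1R was again among the markers higher in the knockout (1864 and 1788 CPM). The T cell markers summed to at most 0.470 CPM with CD2 at 0, and the 3 erythroid markers were at 0 in every library. The B cell list stood at 2.87 to 8.03 CPM in the knockout, 5.45 to 7.28 CPM in the untreated WT and at least 16.9 CPM in the treated WT, where PAX5 led it, with MS4A1 at 0. The NK cell list reached 2.97, the epithelial list 2.49 (KRT19 at 0), the fibroblast list 20.2 (COL1A1 up to 18.6) and the endothelial list 14.8 CPM (VWF up to 14.3). The part of these marker differences in the results was not tested. In bulk libraries, fewer cells that express a gene and less RNA per cell cannot be told apart.

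**Figure D1:**
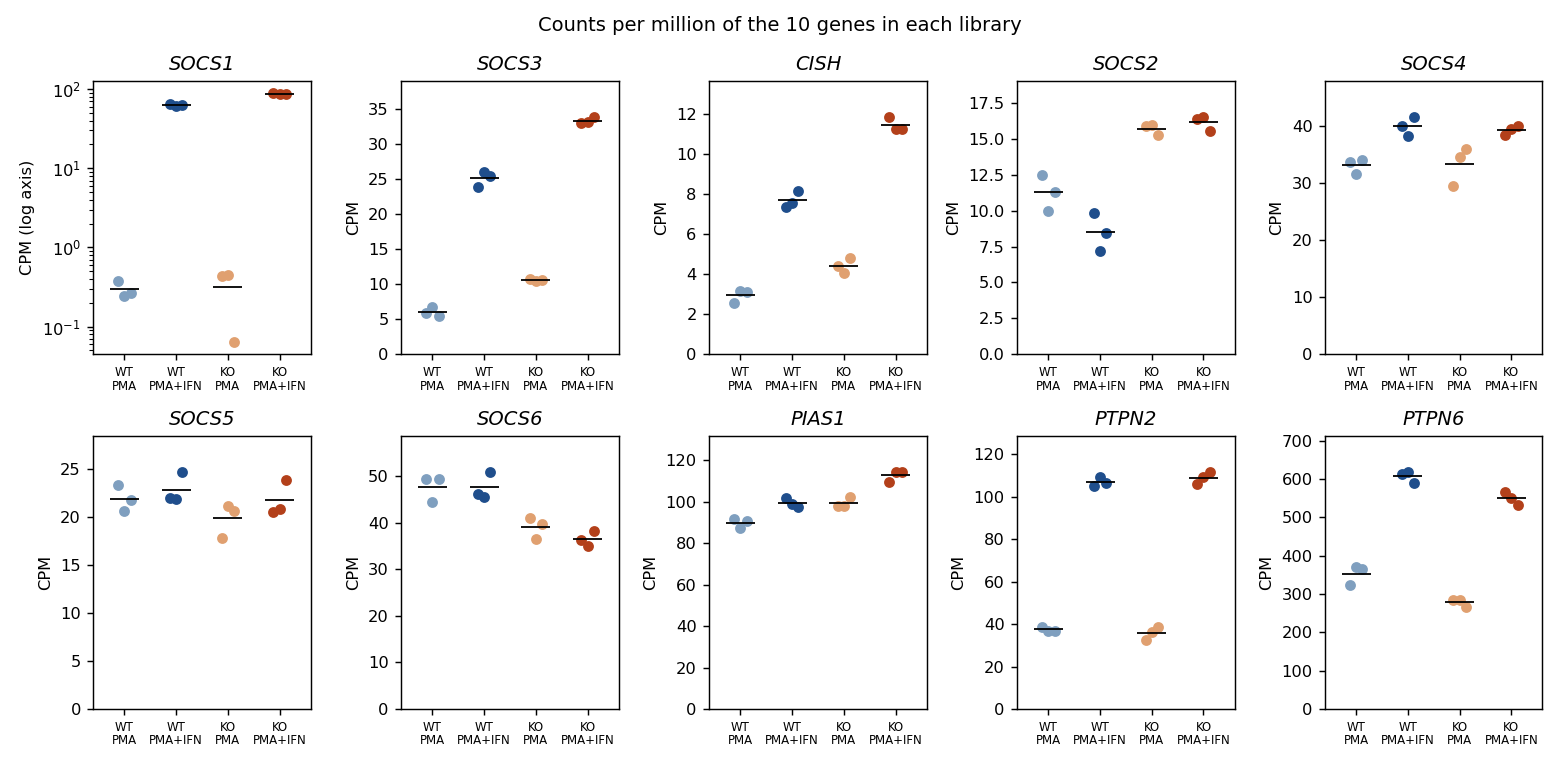
Counts-per-million (CPM, TMM-scaled library sizes) of the 10 genes in each of the 12 libraries. Points are libraries (3 a group), black lines are group means, and SOCS1 has a log axis; IFN-γ separates SOCS1, SOCS3, CISH, PTPN2 and PTPN6 in both genotypes, and SOCS1 with IFN-γ, SOCS2, SOCS3 and CISH stand higher in the knockout.

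IFN-γ raised most of these brakes. In the WT cells 7 of the 10 members rose, 1 fell and 2 were not called, and in the knockout 7 rose, none fell and 3 were not called; scaled on library totals alone, 5 rose and 4 fell in the WT, and 5 rose and 3 fell in the knockout. A gene was called at an adjusted p under 0.05 in edgeR's quasi-likelihood test, fitted once to all 12 libraries and adjusted by Benjamini-Hochberg over all genes tested. Of all genes, 56.5% were called in the WT response (28.6% higher, 27.9% lower) and 61.1% in the knockout response (29.2% higher, 31.8% lower). Among genes at 5 CPM or more in at least 3 libraries, where small changes are easier to call, the shares were 69.5% and 74%. The share of members called in either direction was thus near that of genes at similar levels, and rises outnumbered falls among the members while over all genes both were about as frequent. Since the members were chosen with earlier results of these data known, this contrast may in part come from the choice. The median log2 fold change was 0.53 over the members against -0.02 over all genes in the WT, and 0.61 against -0.05 in the knockout.

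SOCS1, the direct inhibitor of JAK1 and JAK2, went from a trace to one of the most abundant members. Without IFN-γ it stood at 0.381, 0.247 and 0.268 CPM in the WT libraries (10, 8 and 8 counts). In the knockout it stood at 0.432, 0.446 and 0.0645 CPM, from 12, 14 and 2 counts. The untreated values thus rested on 2 to 14 counts a library. Mates of a pair were counted separately, so the sequenced fragments behind these counts were fewer still. The detection floor of 3 counts is 0.0925 to 0.114 CPM there, and only replicate 3 of the knockout lay under it. With IFN-γ SOCS1 reached 65.0, 60.8 and 63.0 CPM in the WT and 88.11, 86.04 and 85.53 CPM in the knockout. The rise was 7.72 on the log2 scale in the WT (adjusted p = 1.1e-29), or 211-fold, and 7.60 to 7.91 with each library left out. In the knockout it was 8.10 (adjusted p = 7.6e-31), and 7.61 to 8.48 with each library left out. The SE derived from the test statistic, 0.14 in each genotype, understates the spread at such low untreated counts. For the difference of the 2 rises the SE was 0.42. In size, the WT change lay at the 99.8th percentile of all genes tested.

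SOCS3, which binds JAKs and the IL-6 receptor chain gp130, rose from a clearly detected level. In the WT it went from 5.87, 6.72 and 5.50 CPM to 23.9, 26.0 and 25.5 CPM with IFN-γ. In the knockout it went from 10.7, 10.5 and 10.5 to 33.0, 33.1 and 33.9 CPM. The 4 groups did not overlap and followed the order WT, knockout, WT with IFN-γ, knockout with IFN-γ. The log2 response was 2.05 in the WT (SE 0.09, adjusted p = 1.2e-19) and 1.66 in the knockout (SE 0.08, adjusted p = 2.5e-18).

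CISH, the family member named for its induction by cytokines and a classical target of STAT5, rose to the same extent in both genotypes. It went from 2.55, 3.18 and 3.12 to 7.33, 7.56 and 8.17 CPM in the WT, and from 4.39, 4.05 and 4.81 to 11.9, 11.2 and 11.2 CPM in the knockout. Here too the 4 groups were fully separate, in the same order as for SOCS3. The log2 response was 1.37 in the WT (SE 0.13, adjusted p = 9.7e-11) and 1.37 in the knockout (SE 0.12, adjusted p = 9.3e-12), and the 95% interval of their difference ran from -0.37 to 0.37. CISH shares 218 of its 5112 exonic bases (4.26%) with MAPKAPK3 on the other strand, and its 4 STAT-site matches are those shown above.

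SOCS2, which limits growth hormone signalling, was, with TMM scaling, the only member that fell, and its response passed the test in the WT and not in the knockout. In the WT it went from 12.5, 10.0 and 11.3 CPM to 9.86, 7.22 and 8.47 CPM (log2 fold change -0.40, SE 0.11, adjusted p = 0.0017). In the knockout it read 15.91, 15.98 and 15.30 CPM without and 16.4, 16.6 and 15.6 CPM with IFN-γ, a log2 fold change of 0.04 (SE 0.10, adjusted p = 0.73). The knockout libraries overlapped between treatments. SOCS2 shares 277 of its 6776 exonic bases (4.09%) with SOCS2-AS1.

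Among the phosphatases, PTPN2, which dephosphorylates JAK1 and JAK3, went from 38.8, 36.8 and 36.9 CPM to 105, 109 and 107 CPM in the WT. In the knockout it went from 32.5, 36.4 and 38.4 to 106, 109 and 112 CPM. The 2 genotypes overlapped in each treatment, and the treatments were far apart (WT log2 response 1.51, SE 0.05, adjusted p = 1.1e-21; knockout 1.61, SE 0.05, adjusted p = 1.8e-22). PTPN6, the phosphatase of blood cells, was the most abundant member. It went from 323, 369 and 366 to 613, 619 and 590 CPM in the WT (log2 response 0.78, SE 0.04, adjusted p = 1.4e-16). In the knockout it went from 285, 285 and 267 to 566, 549 and 533 CPM (0.98, SE 0.04, adjusted p = 3.5e-19).

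The remaining 4 members had small IFN-γ responses. SOCS4, described as a regulator of EGF receptor signalling, was at 33.8, 31.5 and 34.0 CPM in the WT and 40.0, 38.2 and 41.6 CPM with IFN-γ, a log2 fold change of 0.27 (SE 0.07, adjusted p = 0.001). In the knockout it was at 29.4, 34.5 and 36.0 and then 38.3, 39.5 and 39.9 CPM (0.23, SE 0.07, adjusted p = 0.0035). The WT change is 1.21-fold, and the knockout call was lost without KO_PMA replicate 1, the lowest of the 12 libraries (adjusted p = 0.057). PIAS1 was at 91.6, 87.1 and 90.7 CPM in the WT and 102, 98.7 and 97.5 CPM with IFN-γ (0.15, SE 0.04, adjusted p = 0.0061), and rose by 0.18 in the knockout (SE 0.04, adjusted p = 0.00062). Reads of PIAS1 are less certain than those of the other members, since 3476 of its 10776 exonic bases (32.3%) are also exons of CALML4 or another gene on the other strand. SOCS5 and SOCS6 were not called: the 95% interval of the WT response was -0.11 to 0.23 for SOCS5 and -0.13 to 0.12 for SOCS6, and that of the knockout response -0.04 to 0.30 and -0.23 to 0.03.

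The sign and the call of these small values depended on how the libraries were scaled. With TMM scaling, 50.6% of the calls of the WT response and 47.9% of those of the knockout response were higher. With upper-quartile scaling the median gene shifted to -0.13 and -0.17 and the shares became 37.5% and 36.4%. With library totals alone the medians were -0.27 and -0.35 and the shares 25.1% and 23.4%. A change of scaling moves all genes by about the same amount, so a gene's distance from the median gene stays the same by construction. Relative to that gene, SOCS4 stood 0.29 higher in both genotypes and SOCS2 0.39 lower in the WT. PIAS1 stood 0.16 higher in the WT and 0.24 higher in the knockout. That these distances were equal under all scalings is thus no support for the small changes. Read on library totals, however, SOCS4 was at 0.02 in the WT (adjusted p = 0.81) and -0.06 in the knockout, PIAS1 was called lower (-0.10 and -0.11; adjusted p = 0.042 and 0.023), and SOCS6 was called lower (-0.26 and -0.40; adjusted p = 0.00069 and 3.1e-06). On the same totals SOCS5 was called lower in the WT (-0.19, adjusted p = 0.047) and SOCS2 in the knockout (-0.26, adjusted p = 0.02). The rises of SOCS1, SOCS3, CISH, PTPN2 and PTPN6 were called under all 15 alternatives tried in both genotypes.

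**Figure D2:**
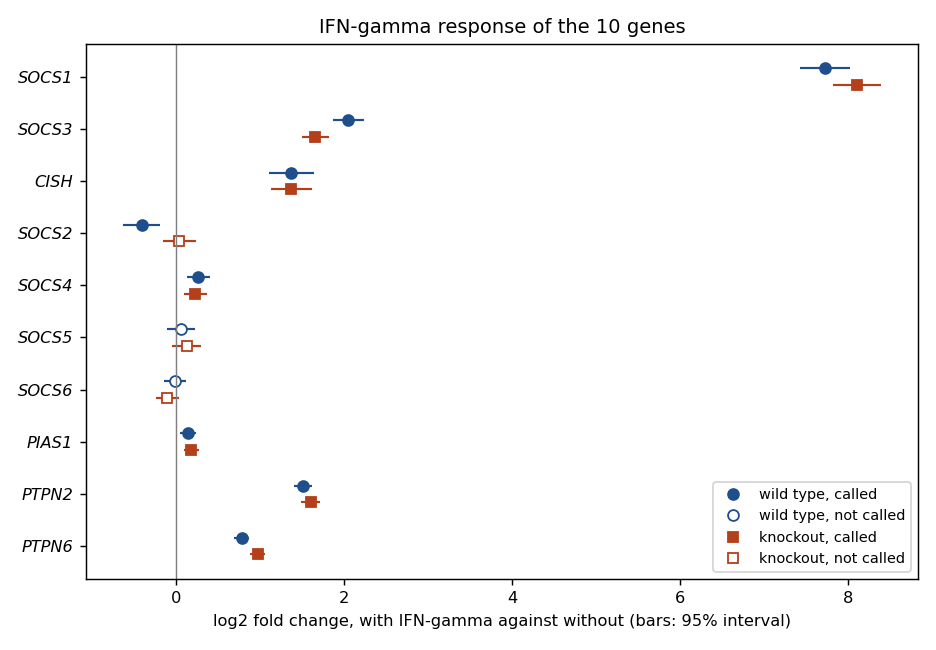
Log2 fold change with IFN-γ against without it, by gene, in WT (circles) and knockout (squares). Bars are 95% intervals and open symbols did not pass the test. The SOCS1 bars are too narrow, as its untreated counts were low. SOCS1 lies near 8, SOCS3, CISH and PTPN2 between 1 and 2.2, PTPN6 between 0.7 and 1.1, and the other genes within 0.5 of 0 with TMM scaling.

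Knockout and WT were then compared within each treatment. With IFN-γ, the comparison the series names, SOCS1, SOCS2, SOCS3, CISH and PIAS1 were higher in the knockout and SOCS6 and PTPN6 lower, so 7 of 10 members were called. The background was high: 47.2% of all genes tested were called (22.9% higher, 24.3% lower), and 60.2% of genes at 5 CPM or more in at least 3 libraries. Without IFN-γ, 6 of the same 7 genes were called in the same directions, SOCS1 being the exception, against 50.1% of all genes (25.4% higher, 24.8% lower) and 63.2% of the genes at 5 CPM or more. The count of members called was thus close to what genes of such levels showed in general. The median size of a change, sign left aside, was 0.28 over the members and 0.28 over all genes with IFN-γ, and 0.22 against 0.28 without it. Groups of libraries did not overlap for exactly the members called. How often this held over all genes was not computed, so it adds no support to the calls. With library totals in place of TMM, 35.6% of the calls with IFN-γ were higher, against 48.6% with TMM.

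With TMM scaling, SOCS1, SOCS2, SOCS3 and CISH had the largest differences of the members with IFN-γ. With upper-quartile scaling SOCS6 (-0.40) differed more than SOCS3 (0.39), and on library totals SOCS6 (-0.46) differed more than SOCS1 (0.38) and SOCS3 (0.33). SOCS2 differed most, at 15.6 to 16.6 CPM in the knockout and 7.22 to 9.86 CPM in the WT, 1.90-fold (log2 fold change 0.93, SE 0.10, adjusted p = 6.9e-09). CISH was 1.49-fold higher (0.58, SE 0.12, adjusted p = 9.5e-05), SOCS1 1.38-fold (0.46, SE 0.07, adjusted p = 1.1e-06) and SOCS3 1.33-fold (0.41, SE 0.08, adjusted p = 3.1e-05). In each of the 4 the lowest knockout library lay above the highest WT library. Without IFN-γ the order was another one. SOCS3 led with a 1.74-fold difference (0.80, SE 0.09, adjusted p = 1.3e-08), followed by CISH (0.57, SE 0.14, adjusted p = 0.00073) and SOCS2 (0.48, SE 0.10, adjusted p = 0.00011). For SOCS1 no difference was detectable at this depth: the log2 fold change was 0.08 with a 95% interval of -0.77 to 0.93, and leaving out knockout replicate 3, the library with 2 counts, moved it to 0.57 (adjusted p = 0.24).

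SOCS6, which binds the receptor KIT and other receptor kinases, was the member furthest below the WT with IFN-γ, and PTPN6 the furthest below it without. SOCS6 stood at 36.3, 34.9 and 38.2 CPM against 46.1, 45.6 and 50.9 CPM with IFN-γ (-0.38, SE 0.07, adjusted p = 1e-05). Without IFN-γ it stood at 41.0, 36.5 and 39.6 against 49.4, 44.3 and 49.4 CPM (-0.29, SE 0.06, adjusted p = 0.00029). PTPN6 was 0.14 lower on the log2 scale with IFN-γ (SE 0.04, adjusted p = 0.0061), a call lost without KO_IFNG replicate 2 (adjusted p = 0.061), and -0.34 without IFN-γ (SE 0.04, adjusted p = 8.8e-08). PIAS1 stood at 110 to 115 CPM against 97.5 to 102 CPM with IFN-γ (0.18, SE 0.04, adjusted p = 0.00093; 0.10 and not called on library totals, adjusted p = 0.055). Without IFN-γ it was higher by 0.15 (SE 0.04, adjusted p = 0.0065).

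For SOCS4, SOCS5 and PTPN2 neither genotype comparison was called. With IFN-γ the 95% interval of the log2 fold change was -0.16 to 0.11 for SOCS4, -0.24 to 0.10 for SOCS5 and -0.08 to 0.13 for PTPN2. Without it the intervals were -0.13 to 0.15, -0.31 to 0.03 and -0.18 to 0.05. That of SOCS5 held values as large as the difference called for SOCS6 there (-0.29). SOCS5 was at 17.9 to 21.1 CPM in the untreated knockout and 20.7 to 23.4 CPM in the untreated WT, and at 20.6 to 23.9 against 21.9 to 24.8 CPM with IFN-γ, so the libraries overlapped in both treatments.

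**Figure D3:**
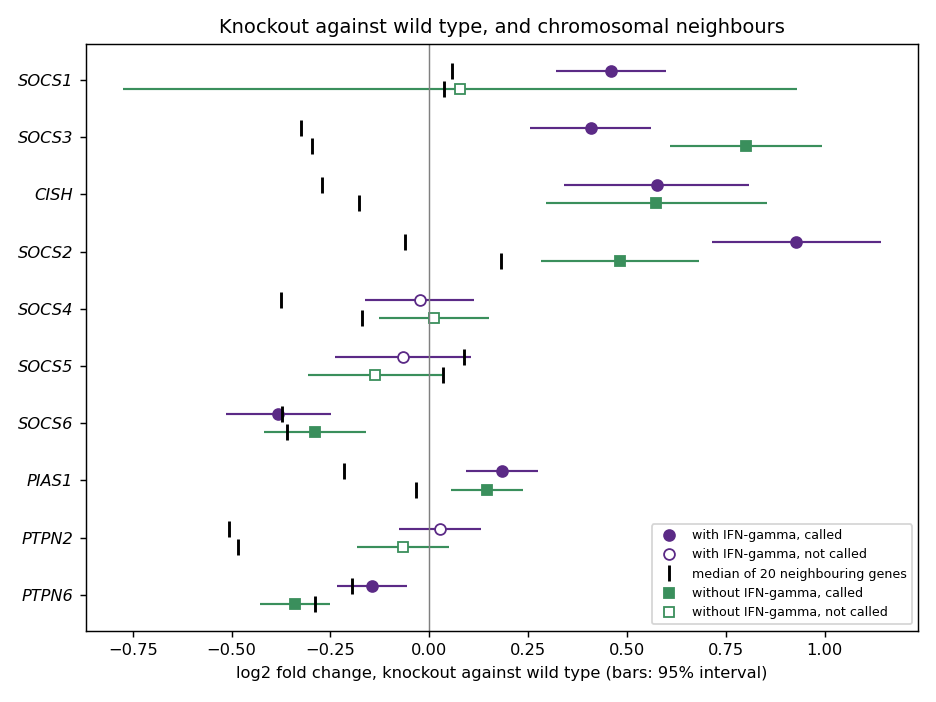
Log2 fold change of knockout against WT by gene, with IFN-γ (circles) and without (squares); bars are 95% intervals, open symbols did not pass the test, and black ticks are the medians of the 20 nearest tested genes. SOCS2, SOCS3 and CISH lie above their neighbours' medians in both treatments, SOCS6 and PTPN6 lie close to theirs, and PTPN2 lies near 0 beside neighbours near -0.5.

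Neighbouring genes differed between the genotypes in several of these places, so each member was set beside the 10 nearest tested genes on either side. SOCS6 and its neighbours on chromosome 18 (63871692 to 75074205, hg38) stood at the same level: the median of the 20 neighbours was -0.37 with IFN-γ and -0.36 without it, and 10 and 9 of them were called lower. Chromosome 18 as a whole had a median of -0.39 in both treatments over 245 tested genes, with 149 and 142 called lower and 4 and 9 higher. PTPN2 lies on the same chromosome (12785478 to 12929643, minus strand) among neighbours with medians of -0.51 and -0.48, of which 13 and 11 were called lower, yet was itself at 0.03 and -0.07. PTPN6 (chromosome 12, 6946468 to 6961316) was near its neighbours, whose medians were -0.20 and -0.29.

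The members that stood higher in the knockout stood above the medians of their neighbourhoods. They were picked for a high value of their own, so standing above such medians follows largely from that choice and is no support. CISH (chromosome 3, 50606490 to 50611831, minus strand) exceeded all 20 neighbours in both treatments, with neighbour medians of -0.27 and -0.18. SOCS3 (chromosome 17, 78356778 to 78360077, minus strand) exceeded 19 of 20 in both, with medians of -0.33 and -0.30. SOCS2 (chromosome 12, 93569814 to 93583487) exceeded 19 of 20 with IFN-γ and 14 of 20 without it, with medians of -0.06 and 0.18. SOCS1 (chromosome 16, 11254405 to 11256179, minus strand) exceeded 18 of 20 with IFN-γ, and its neighbours' medians were 0.06 and 0.04. PIAS1 (chromosome 15, 68054179 to 68198603) exceeded 14 of 20 with IFN-γ and 16 of 20 without it, with medians of -0.22 and -0.03. For SOCS4 (chromosome 14, 55027230 to 55049488) the medians were -0.37 and -0.17, and for SOCS5 (chromosome 2, 46698952 to 46763129) 0.09 and 0.03. The part of neighbouring-gene shifts in the members' values was not tested.

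Whether the genotypes responded differently to IFN-γ was tested as the difference of the 2 responses, which passed the threshold for 3 of 10 members, against 15.5% of all genes (7.61% higher, 7.86% lower) and 23.7% of genes at 5 CPM or more in at least 3 libraries. SOCS2 fell in the WT and not in the knockout, a difference of 0.45 on the log2 scale (SE 0.14, adjusted p = 0.032). SOCS3 rose less in the knockout, from a higher start, with a difference of -0.39 (SE 0.12, adjusted p = 0.022). PTPN6 rose more in the knockout, from a lower start, by 0.19 (SE 0.06, adjusted p = 0.028). All 3 calls were marginal. That of SOCS2 was lost on leaving out any 1 of 8 of the 12 libraries (KO_IFNG replicate 1, KO_PMA replicates 1, 2 and 3, WT_IFNG replicates 2 and 3, WT_PMA replicates 1 and 3; adjusted p = 0.051 to 0.14). That of SOCS3 was lost without KO_IFNG replicate 2, WT_IFNG replicate 2 or WT_PMA replicate 3 (0.06 to 0.095), and that of PTPN6 without KO_IFNG replicate 1, KO_PMA replicate 3, WT_IFNG replicate 3 or WT_PMA replicates 2 or 3 (0.065 to 0.095). The size of the difference stayed between 0.34 and 0.57 for SOCS2, -0.48 and -0.33 for SOCS3, and 0.16 and 0.25 for PTPN6. For SOCS1 the difference was 0.38 with an interval of -0.49 to 1.25, on 26 untreated counts in the WT and 28 in the knockout. On library totals only that of SOCS3 was called. With library totals 35.0% of the calls over all genes were higher, against 49.2% with TMM.

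Levels of different genes were compared per exon length, as TPM (transcripts scaled by length and by library total) computed from the counts, with no test. For PIAS1 the full exon length was used, although 32.3% of it is shared with other genes. Reads there could not be assigned, so its TPM and its place in these orders may be too low. PTPN6 was the most abundant member in all 4 groups, at 312 ± 23.3 TPM (SD, n = 3) in the untreated WT and 452 ± 14.5 TPM with IFN-γ. SOCS1 moved from last place to second: 1.08 ± 0.258 TPM and then 191 ± 6.51 TPM in the WT, and 1.12 ± 0.770 TPM and then 252 ± 3.56 TPM in the knockout. In the untreated WT the order after PTPN6 was PIAS1 (36.9), SOCS6 (35.3), PTPN2 (24.0), SOCS4 (20.8), SOCS5 (19.3), SOCS3 (9.77), SOCS2 (7.37), CISH (2.55) and SOCS1, where PIAS1 and SOCS6, and SOCS4 and SOCS5, did not differ beyond their ranges over libraries. With IFN-γ it became PTPN6, SOCS1, PTPN2 (57.6), PIAS1 (34.3), SOCS3 (34.2), SOCS6 (29.6), SOCS4 (21.1), SOCS5 (16.9), CISH (5.60) and SOCS2 (4.68), where PIAS1 and SOCS3, and CISH and SOCS2, overlapped.

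The knockout kept much of that order. Without IFN-γ it was PTPN6 (243 TPM), PIAS1 (40.2), SOCS6 (28.4), PTPN2 (22.5), SOCS4 (20.6), SOCS5 (17.2), SOCS3 (16.8), SOCS2 (10.1), CISH (3.76) and SOCS1, with overlapping ranges from PTPN2 through SOCS3 between each gene and the next. With IFN-γ it was PTPN6 (392), SOCS1, PTPN2 (56.3), SOCS3 (43.6), PIAS1 (37.4), SOCS6 (21.7), SOCS4 (19.9), SOCS5 (15.5), SOCS2 (8.53) and CISH (7.998), with no overlap between neighbours in the order. SOCS3 thus stood above PIAS1 in the treated knockout and level with it in the treated WT.

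The genes whose pattern over the 12 libraries lay closest to SOCS1, SOCS2, SOCS3 and CISH were sought among 11408 genes, by the root mean square difference of centred log2 CPM. For SOCS1 they were the interferon-induced genes IFIT2 (0.25) and EPSTI1 (0.34) and the enzyme of tetrahydrobiopterin synthesis GCH1 (0.34). IFIT2 went from 5.39 to 504 CPM in the WT and from 4.64 to 730 CPM in the knockout. For SOCS3 they were VPS9D1 (0.12), IFITM2 (0.13) and HIVEP2 (0.14), for CISH IDH1, KDM7A and PLEKHO1 (each 0.12), and for SOCS2 MPC2 (0.11), SSBP2 (0.13) and ZNF611 (0.13). MPC2, a subunit of the mitochondrial pyruvate carrier, had group means of 57.7 CPM in the untreated WT, 42.0 CPM in the treated WT, 76.3 CPM in the untreated knockout and 71.6 CPM in the treated knockout. Ranked by group means alone, the same 3 genes led for SOCS1, whereas UNC5C, GSAP and ERRFI1 led for SOCS3, ZNF611, PCDH7 and ZNF234 for SOCS2, and IDH1, KDM7A and H4C8 for CISH. These values describe likeness over 12 libraries that fall into 4 groups.

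A further 11 brakes of the pathway were listed. Of the 11399 genes at 5 CPM or more in at least 3 libraries, 3927 rose in the WT and 3935 in the knockout. Between the genotypes with IFN-γ, 60.2% of such genes were called. With IFN-γ, 7 rose in the WT and 7 in the knockout, where 28.6% and 29.2% of all genes rose: USP18 (2.40 and 2.99 on the log2 scale), which blocks the type I interferon receptor, DUSP3 (1.32 and 1.14), PIAS2 (1.18 and 0.99), PTPRC or CD45 (0.99 and 0.98), PTPN1 (0.79 and 0.85), the adaptor SH2B3 (0.25 and 0.56) and the ubiquitin ligase CBL (0.18 and 0.23). On library totals 5 rose and 2 fell in the WT and 6 rose and 4 fell in the knockout, with CBL at -0.07 in both and SH2B3 at -0.0026 in the WT. PTPN11 (-0.01 and 0.01), SOCS7 (-0.09 and -0.13) and PIAS4 (0.10 and 0.07) were not called, and PIAS3 was at 0.15 in the WT and called lower in the knockout (-0.17, adjusted p = 0.031). In the treated knockout USP18 (1.30, SE 0.10, adjusted p = 3.8e-12), PTPRC (0.54) and DUSP3 (0.25) were higher than in the treated WT and PIAS2 (-0.41) and SH2B3 (-0.25) lower, 5 of 11 against the 47.2% of all genes given above; on library totals PTPN1 (-0.18) and PTPN11 (-0.10) were called lower as well. Without IFN-γ, USP18 (0.71), PTPRC (0.55), DUSP3 (0.43) and PIAS3 (0.36) were higher and SH2B3 (-0.56), PIAS2 (-0.22) and PTPN1 (-0.17) lower. These were 7 of 11, against 50.1% of all genes and 63.2% of genes at 5 CPM or more. The difference of responses was called for SH2B3 (0.31), USP18 (0.59), PIAS3 (-0.32) and DUSP3 (-0.18), 4 of 11. Such a difference was called for 15.5% of all genes and 23.7% of genes at 5 CPM or more. On library totals the call of USP18 was lost (0.54, adjusted p = 0.054).

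**Figure D4:**
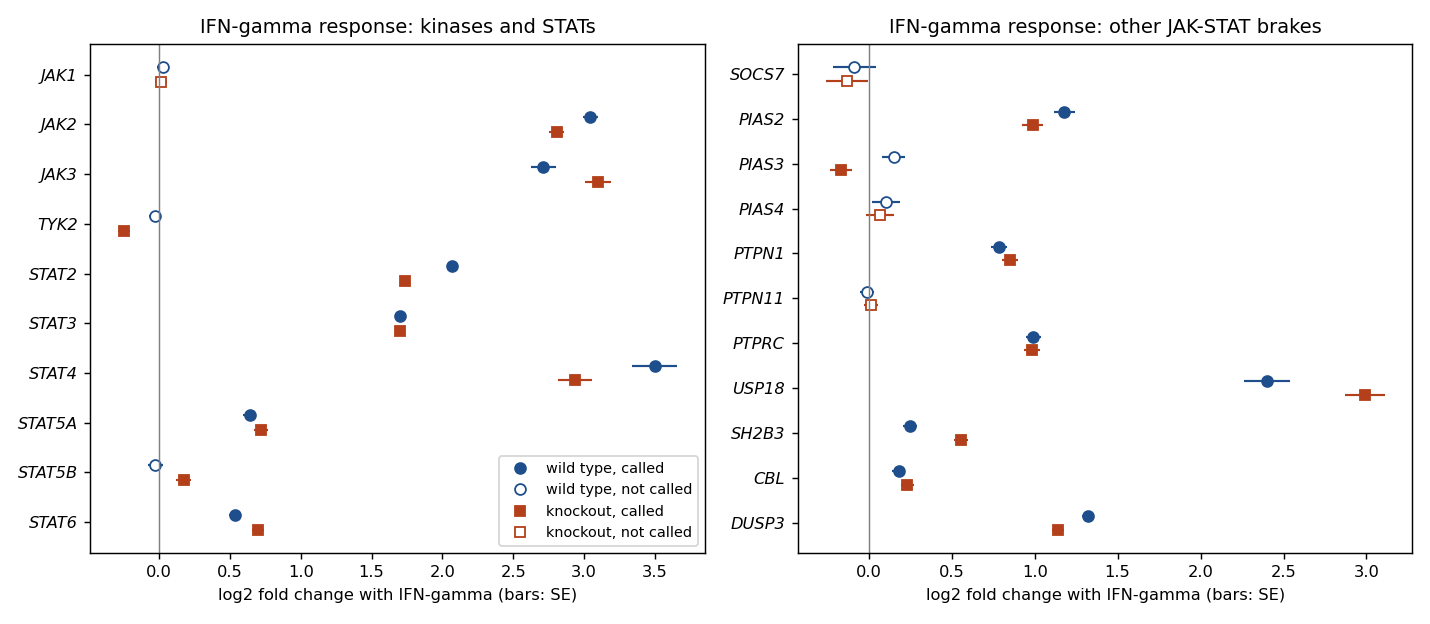
Log2 fold change with IFN-γ of 10 kinases and STATs (left) and the 11 further brakes (right), in WT (circles) and knockout (squares); bars are standard errors and open symbols did not pass the test. STAT4, JAK2 and JAK3 rose by 2.7 to 3.5 and USP18 by 2.4 to 3.0, while JAK1, PTPN11, SOCS7 and PIAS4 lay near 0 with TMM scaling.

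The signalling machinery that these brakes act on moved as well. Of 10 JAKs and STATs, 7 rose with IFN-γ in the WT and none fell, led by STAT4 (3.50) and JAK2 (3.04), and 8 rose and 1 fell in the knockout (JAK3 3.10, STAT4 2.94, TYK2 -0.25); on library totals the counts were 7 and 3 in both genotypes. Of all genes, 56.5% were called in the WT response and 61.1% in the knockout response. Among genes at 5 CPM or more in at least 3 libraries the shares were 69.5% and 74%. Between the genotypes they were 60.2% with and 63.2% without IFN-γ. In the treated knockout 4 were higher and 4 lower than in the treated WT (3 and 4 on library totals), where 47.2% of all genes were called: STAT4 (1.12, SE 0.11, adjusted p = 1.5e-10) and JAK2 (0.43) were the highest, STAT6 (-0.68, SE 0.04, adjusted p = 2e-14) and STAT2 (-0.28) the lowest. Without IFN-γ the count was again 4 and 4, against 50.1% of all genes called, with STAT4 (1.69), JAK2 (0.66), STAT6 (-0.84) and JAK3 (-0.48). Of 17 tested receptor chains of the 20 listed, 13 were higher in the knockout in each treatment, where 22.9% of all genes were higher with and 25.4% without IFN-γ, among them IL6R (0.83 with and 0.91 without IFN-γ) and IL10RB (0.82 and 0.81), while IL2RG was lower (-0.79 and -1.79). The 13 were not all the same genes: IL7R was higher with IFN-γ (0.53, adjusted p = 0.0021) and lower without it (-0.57, adjusted p = 0.0091), and IL21R was called higher without it alone (0.69, adjusted p = 0.00011; 0.29 with IFN-γ, adjusted p = 0.14). The median over the chains was 0.42 and 0.46, against -0.01 and 0.01 over all genes. Of the 11399 genes at 5 CPM or more, 3376 were higher in the knockout with IFN-γ and 3756 without it.

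Of the 18 ligands listed, 7 passed the filter on low counts, and IFNG, IFNB1, IL6 and IL4 were among those that did not. IL10 (-1.97 with and -2.03 without IFN-γ) and EBI3 (-1.20 and -1.49) were lower in the knockout, and TSLP was higher with IFN-γ (1.10, adjusted p = 0.012). Their levels were low. With IFN-γ the means in knockout and WT were 0.631 and 2.51 CPM for IL10, 2.17 and 5.01 CPM for EBI3, and 1.16 and 0.537 CPM for TSLP. The 9 partners of the SOCS box, from which the ubiquitin ligase is built, had genotype differences of at most 0.43 in size among those called: ELOB was higher in the knockout in both treatments (0.40 and 0.43), ARIH2 lower (-0.21 and -0.26) and CUL5 higher with IFN-γ (0.24). Of them 7 rose with IFN-γ in the WT and 6 in the knockout, where 28.6% and 29.2% of all genes rose. None of the 9 had a difference of responses that was called, against 15.5% of all genes and 23.7% of genes at 5 CPM or more. On library totals 3 rose and 3 fell in the WT and 3 rose and 4 fell in the knockout.

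Targets of STAT3 and STAT5 were listed with the 10 genes of the set left out. Of the 17 tested, 10 were higher and 4 lower in the treated knockout, where 22.9% of all genes were higher and 24.3% lower, with VEGFA (0.77) and PIM2 (0.68) at the upper end and MYC (-2.03) and CCND2 (-1.33) at the lower, beside CISH at 0.58 and SOCS3 at 0.41. Without IFN-γ the count was 7 higher and 7 lower, against 25.4% and 24.8% of all genes. Of the 11399 genes at 5 CPM or more, 3376 were higher and 3488 lower with IFN-γ, and 3756 and 3445 without it.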

How the data were processed

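The deposited table gave raw counts for 58051 Ensembl genes in 12 libraries (hg38), which the authors made with featureCounts 2.0.3 over exons for paired reads, with primary alignments only and chimeric pairs left out, per the file headers. The header shows no strand option and no option to assign reads over several genes, and mates were counted separately: 70.4% to 73.3% of counts from 1 to 19 were even. Libraries were made with a stranded mRNA kit, per the labels' protocols. STAR 2.7.10b, fastp 0.23.2, BWA, Picard 2.27.5, FastQC, MultiQC 1.13 and Subread are named in the submitters' processing notes, and the annotation release is not given in the sources used here. The same file deposited an exon length per gene, used here for TPM (column of other values).

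Genes were filtered with filterByExpr at its defaults (17119 left), scaled by TMM and fitted with edgeR 4.0.16 by the quasi-likelihood test, a single model of the 12 libraries whose terms were the 4 groups, two-sided, adjusted by the Benjamini-Hochberg method with a threshold of 0.05. Alternatives were DESeq2 1.42.0, limma-voom (limma 3.58.1), RLE, upper-quartile and no scaling, no filter, at least 5 CPM in 3 libraries, the compared libraries only, the replicate block and each library left out. Replicates of a group differed by a chi-square of 2.90 to 7.58 for each degree of freedom, so no library was a copy of another. Depth sets precision: 3 counts were 0.0925 to 0.130 CPM. Likeness used log2 of CPM plus 0.5 over genes at 5 CPM or more in a group mean.

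The rule for named genes gave all 10 members, all further brakes, and from each other list up to 2 higher and 2 lower genes with the largest called change in a comparison, from which some are left out for length; 1 gene of the kinase and STAT list and 1 list are not reported here. Symbols came from a reference table that held 56948 of the genes, and promoter sequences from RefSeq (GRCh38.p14). The members and lists were chosen with earlier results of these data known. R 4.3.3 and Python 3.11.15 were used.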

Additional observations from a re-analysis of the deposited data

Results flagged for a closer look

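The IFN-γ response differed between the genotypes, by edgeR's test of the difference itself, for 3 of the 10 genes: SOCS2 (0.45 on the log2 scale, knockout minus WT, adjusted p = 0.032), SOCS3 (-0.39, adjusted p = 0.022) and PTPN6 (0.19, adjusted p = 0.028). SOCS2 was lower with IFN-γ in 3 of 3 WT libraries and overlapped in the knockout, SOCS3 rose in both genotypes and by less in the knockout, and PTPN6 rose in both and by more in the knockout. Over all genes tested 15.5% had such a difference, and 23.7% of genes at 5 CPM or more in at least 3 libraries. In groups of 3 libraries no test for a single outlying library was made.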

How the results depend on the processing

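Over the 10 genes and 5 comparisons, 800 alternative values were computed: 730 kept direction and call, 26 lost the call, 4 gained one and 40 changed sign. With library totals the changed signs were PTPN2 in knockout against WT with IFN-γ (-0.05), SOCS4 without it (-0.021), SOCS5 (-0.19, adjusted p = 0.047) and PIAS1 (-0.10) in the WT response, SOCS2 (-0.26, adjusted p = 0.02), SOCS4 (-0.063), SOCS5 (-0.17) and PIAS1 (-0.11) in the knockout response, and CISH (-0.046) and PIAS1 (-0.0092) in the difference of responses. With upper-quartile scaling they were SOCS4 without IFN-γ (-0.0027), SOCS5 in the WT response (-0.054), SOCS2 in the knockout response (-0.076) and CISH in the difference (-0.0036). With at least 5 CPM in 3 libraries they were SOCS2 in the knockout response (-0.0053) and CISH in the difference (-0.014); SOCS1 without IFN-γ was at -0.28 with limma-voom and SOCS4 at -0.0034 with the compared libraries only. SOCS6 gained a call in the knockout response with upper-quartile scaling (-0.22) and at least 5 CPM (-0.15, adjusted p = 0.043). SOCS3 lost its call in the difference without the filter (adjusted p = 0.055), SOCS2 (0.056) and PTPN6 (0.10) with library totals, and the members called there fell from 3 to 1. Beyond the shift of the median gene, the cause was not tested.

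With each library left out in turn, the members called in the difference ranged from 0 to 3. Log2 values with a changed sign ranged from -0.054 to 0.0053 for SOCS4 with IFN-γ and from -0.046 to 0.093 without it, from -0.30 to 0.57 for SOCS1 without IFN-γ, and from -0.055 to 0.022 for SOCS6 in the WT response. In the difference they ranged from -0.061 to 0.088 for CISH, -0.0029 to 0.14 for SOCS5, -0.11 to 0.76 for SOCS1 and -0.12 to 0.022 for SOCS4. The counts of genes called over all genes stayed within 1.5 times their value under all alternatives run. Same-numbered libraries of different groups correlated at -0.19 to 0.28 in their deviations from the group means and not every library did best with its own number. With 3 libraries a group, such values cannot settle whether the numbers pair the libraries. The replicate block left 7, 6, 8, 7 and 3 members called in the 5 comparisons, in 7983, 8500, 9600, 10375 and 2588 genes called. Depth limited SOCS1 without IFN-γ, and the other 9 genes had at least 67 counts in every library.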
